A study of Mus musculus with 3 samples.

Results

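A set of 215 genes was described on 3 single-colour CodeLink arrays. They read lower in fetal liver without the nuclease DNase II, and higher again when the receptor for type I interferon was also missing. They are measured by 219 of 20289 probes, and were chosen from the deposited values: values below 0.16 were raised to 0.16, and a probe with 1 gene symbol was kept where wild-type read above 1, DNase II-deficient at most 0.5 times wild-type and double-deficient at least 2 times DNase II-deficient. The symbols Slc25a37, Epb42, Sptb, Alad, Klf1, Trim10 and Serpina1c, and those starting Mcm, Cdc, Rpl, Rps or Psm, were left out by name. That step removed 8 of the 227 probes that met the numbers. All 219 probes lay above 0.16 in all 3 arrays, so no member rests on a raised value.

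RNA of mouse fetal liver taken at E14.5 (days of gestation) was hybridised. The genotypes were double-deficient (DNase II-/- and IFN-IR-/-), DNase II-deficient and wild-type, with 1 array each, and both mutants share the loss of DNase II. The sources used here do not say how the alleles were made, which strain was used or how many embryos gave RNA to an array. With 1 array per genotype no difference below has a replicate check, and no test, error or p-value can be given.

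DNase II is the lysosomal enzyme with which macrophages of the fetal liver degrade the DNA of the nuclei that maturing red cells expel. Undigested DNA in these macrophages is known to set off the production of type I interferon, and IFN-IR is the receptor through which cells respond to it. Most red cells of the fetus are made in its liver. Erythroblasts there divide, build the membrane skeleton and the surface proteins of the red cell, take up iron for heme, condense the nucleus and expel it beside a macrophage. Hepatocytes, macrophages, sinusoidal endothelium and other cells make up the rest of the organ.

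The probe of Dnase2a, the gene of DNase II, read 39.7 in the double-deficient array, 48.6 in the DNase II-deficient array and 40.4 in the wild-type array. The sources used here do not say whether the probe lies in the deleted part, so it checks nothing, and the genotypes are those of the labels. Hepatocyte and red cell markers were bright in every array, Afp between 568.5 and 885.1 and Hbb-bt between 894.5 and 1032. Of the macrophage markers, Marco, Cd5l, Clec4f and Cd163 read below wild-type in both mutants. Marco read 13.5, 3.98 and 41.1 in the double-deficient, DNase II-deficient and wild-type arrays. Clec4f lay at the floor of 0.16 in the double-deficient array and read 0.177 and 1.27 in the others. Vcam1, the remaining marker, read 10.5, 15.1 and 12.4, above wild-type only in the DNase II-deficient array. The complement genes, not among these markers, differed from each other. C1qb read 69.4, 65.4 and 36.8, and C1qc was likewise above wild-type in both mutants, whereas C1qa read 9.64, 5.73 and 8.06. Over the 15 probes of interferon-stimulated genes with wild-type above 1, the median log2 difference from wild-type was 0.08 in the double-deficient array and 2.70 in the DNase II-deficient array. The summed level of the 7 red cell lists was 9594, 8145 and 11055 in the double-deficient, DNase II-deficient and wild-type arrays. The sum over the hepatocyte list was 5215, 5302 and 5948, over the resident macrophage list 403.8, 328.3 and 417.8, and over the myeloid, mast and lymphoid list 690.8, 841.8 and 320.1, in the same order of arrays. The part of such shifts in the members' values was not tested. In bulk RNA, fewer cells of a type and less RNA per cell cannot be told apart.

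Of the 8322 probes with 1 symbol and wild-type above 1, 540 (6.49%) read at most 0.5 times wild-type in the DNase II-deficient array and 276 (3.32%) read at least 2 times higher in the double-deficient than in the DNase II-deficient array. At least 2 times wild-type in the DNase II-deficient array were 357 (4.29%). Both held for 227 probes (2.73%), and for 219 (2.63%) after the named symbols were left out. These shares are set by the rule and describe its yield. The other 313 of the 540 lower probes did not reach 2 times the DNase II-deficient level in the double-deficient array. The median log2 difference between DNase II-deficient and wild-type was -1.51 over the members and -0.24 over the 8322 probes, so the members lay 1.27 log2 units below the typical probe (-1.27).

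The levels of the members spanned a wide range. They lay between 0.497 and 284.6 in the double-deficient array with a median of 7.64, between 0.212 and 130.4 in the DNase II-deficient array with a median of 2.88, and between 1.01 and 338.1 in the wild-type array with a median of 8.19. Members made up 1.52% of probes with a wild-type level from 1 to 2 and 4.23% of those above 50, so the share was lowest among the dimmest probes. In 38 members the DNase II-deficient level was at most 0.25 times wild-type, and in 60 it was between 0.4 and 0.5 times.

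**Figure D1:**
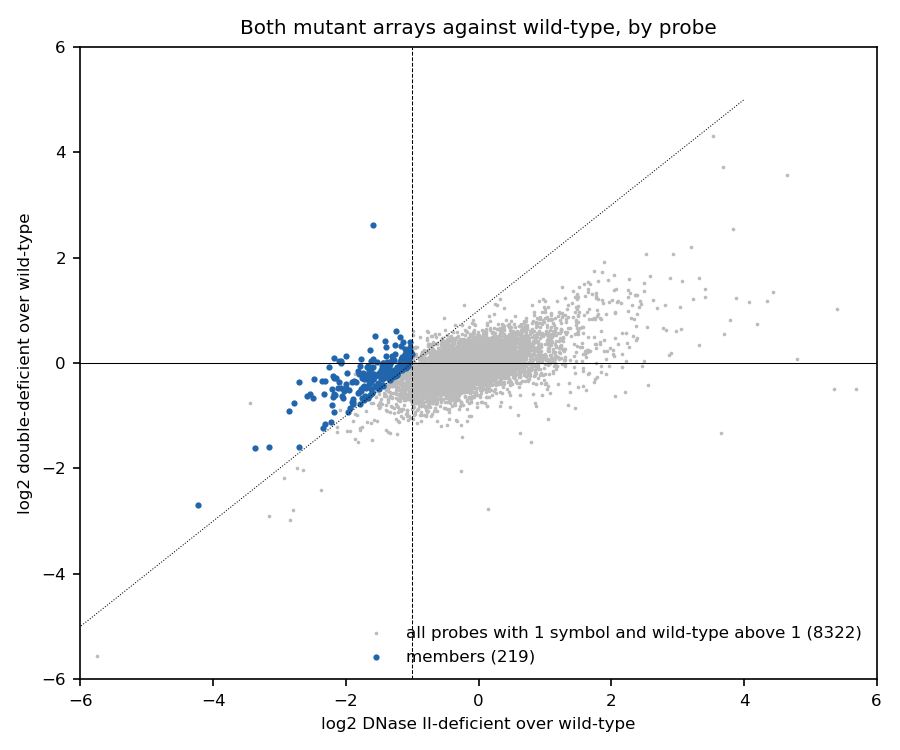
Each point is a probe, with the log2 ratio of the DNase II-deficient to the wild-type array on the x axis and of the double-deficient to the wild-type array on the y axis. Grey points are the 8322 probes with 1 symbol and wild-type above 1, blue points the 219 members, and the dashed and dotted lines are the 2 thresholds of the rule. The members lie at the edge of a continuous cloud and most are near 0 on the y axis, with Ccl24 far above (2.61) and Car3 (-2.69), Marco, Abcb11, Fcna and Hao2 far below; 1 probe lies beyond 6 log2 units and is not drawn.

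The thresholds cut through a continuous distribution. Just inside the first were Zfp91, Cisd2 and Dapk2, with DNase II-deficient at 0.498, 0.491 and 0.490 times wild-type, and just outside it were Fam126b, Glcci1 and Ubqln5 at 0.501, 0.501 and 0.502 times. Naa50, Cit and Slc17a3 were just inside the second, with double-deficient at 2.001, 2.002 and 2.004 times DNase II-deficient, and Zic2, Pcdhb13 and Ndufab1 were just outside at 1.995, 1.99 and 1.987 times. For the wild-type minimum, Car5a, Olfr632 and Scnn1b were just inside at 1.01, 1.06 and 1.07, and Pym1, Guk1 and Olfr667 just outside at 0.979, 0.977 and 0.975.

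The rule sets no upper limit on the double-deficient level. It does set a lower one, since that level must be at least 2 times the DNase II-deficient level. The ratio of double-deficient to wild-type also shares both arrays with the rule, and a high wild-type value favours membership. The double-deficient level was within 1.5 times of wild-type in 187 of 219 members (85.4%, against 91.5% of the 8322 probes) and within 2 times in 211 (96.3%, against 98.1%). The median log2 difference between double-deficient and wild-type was -0.22 over the members, with 25th and 75th percentiles of -0.41 and -0.03, and -0.09 over all 8322 probes. It was above 0 in 48 members (21.9%), against 37.0% of all probes. Expressed as the share of the log2 gap between DNase II-deficient and wild-type that the double-deficient array closed, the median was 86.1%, with 25th and 75th percentiles of 76.3% and 97.6%. The rule requires a rise of at least 2 times from DNase II-deficient, so much of this share is set by the choice of members. Most members thus lay near wild-type in the double-deficient array, but slightly less often than all probes, so this is no trait particular to them. The rule keeps most members from lying far below wild-type, so these shares of members are largely set by it. The typical member read a little under wild-type.

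A few members lay apart. More than 2 times below wild-type in the double-deficient array were 7 members, against 65 of all 8322 probes (0.781%). The rule allows this only among the 38 members with DNase II-deficient at most 0.25 times wild-type. More than 2 times above wild-type was 1 member, against 93 probes (1.12%). Car3, a carbonic anhydrase of muscle, fat and liver, read 2.52 in the double-deficient array, 0.868 in the DNase II-deficient array and 16.3 in the wild-type array, the widest gap of all members. Marco, a scavenger receptor of tissue macrophages, read 13.5, 3.98 and 41.1 in the same order of arrays, and Fcna, the ficolin that macrophages secrete to bind microbial sugars, read 7.23, 2.43 and 21.7. For both, the double-deficient value was 3.38 and 2.98 times the DNase II-deficient value and yet about 33% of wild-type (32.7% for Marco and 33.3% for Fcna). The bile salt export pump gene Abcb11 (33.1% of wild-type), the peroxisomal oxidase gene Hao2 (42.8%), the organic anion transporter gene Slc22a8 (45.0%) and the melanocortin receptor accessory gene Mrap (45.8%) completed this group. The opposite case was Ccl24, the eosinophil attractant eotaxin-2, at 18.2 in the double-deficient array, 0.985 in the DNase II-deficient array and 2.98 in the wild-type array, 6.12 times wild-type in the double-deficient array. After Ccl24 the highest ratios of double-deficient to wild-type belonged to Zc3h11a (1.53), Olfr672 (1.43), the ferritin receptor gene Scara5 (1.41), Tnfrsf25 (1.34) and Astn2 (1.32).

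Proteins of the red cell surface and its skeleton gave the highest share of members of any list as deposited; with cyclic loess that share was 5 of 37 probes (13.5%), against 3 of 22 (13.6%) for resident macrophage genes. Of 37 probes of the red cell membrane and skeleton list with wild-type above 1, 20 read at most 0.5 times wild-type in the DNase II-deficient array and 1 at least 2 times, with a median log2 difference of -1.04. Over all probes these shares were 6.49% and 4.29%. Members were 9 of the 37 (24.3%, against 2.63% of all probes), and Epb42 and Sptb met the numbers but were left out by name. Add2, encoding the adducin subunit that caps actin filaments in the membrane skeleton, read 9.22 in the double-deficient array, 1.80 in the DNase II-deficient array and 11.8 in the wild-type array. Icam4, the adhesion molecule that carries the Landsteiner-Wiener antigen and binds integrins on macrophages, read 6.32, 2.91 and 10.9 in that order. Slc38a5, a glutamine transporter of erythroblasts, read 24.0 in the double-deficient, 8.25 in the DNase II-deficient and 30.3 in the wild-type array. The Rh antigen gene Rhd, among the brightest, read 83.5, 41.3 and 136.1.

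The other members of the group were the leucine transporter gene Slc43a1, the urea transporter gene Slc14a1 that carries the Kidd antigens, Art4 of the Dombrock antigens, the actin bundling gene Dmtn, the Kell antigen gene Kel, and the claudin gene Cldn13, which was added to the group after its values were seen. Over these 10 probes the DNase II-deficient level lay between 15.2% and 41.0% of wild-type. The double-deficient level lay between 58.3% and 88.1% of wild-type, with a median of 75.02%, and was below wild-type in all 10. Anion exchanger gene Slc4a1, the main integral protein of the red cell membrane, missed the set narrowly: it read 27.5 in the double-deficient array, 14.7 in the DNase II-deficient array and 35.6 in the wild-type array.

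**Figure D2:**
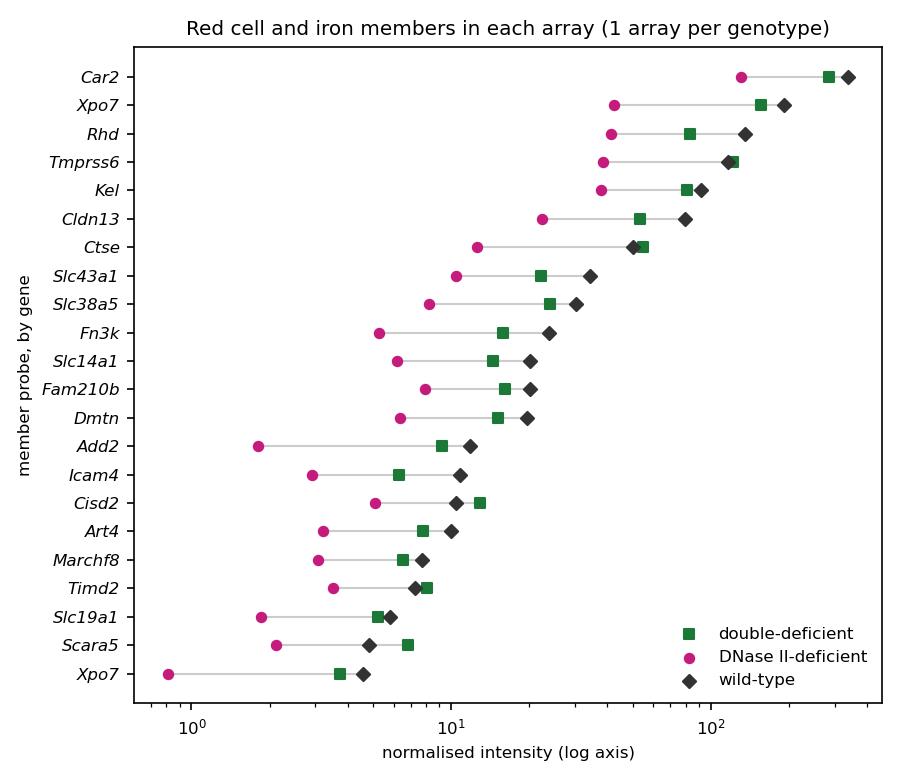
The normalised intensity (log axis) of each red cell or iron member probe is given for the double-deficient array (green squares), the DNase II-deficient array (pink circles) and the wild-type array (dark diamonds), 1 array per genotype, ordered by wild-type level. Every circle lies left of the other points by the rule. The squares lie left of the diamonds for all 10 surface and skeleton probes, and right of them for 5 of the 12 others. The rule also sets how near to its circle a square may lie, which shapes this contrast.

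Promoter windows of 4 blood group carriers are shown, since these members share the pattern and erythroid promoters are known for binding sites of GATA factors and of Klf1. The windows run from 250 bases before to 50 after the start of the gene, 5′ to 3′, from RefSeq on GRCm38.p6: Icam4 at chr9:21029182-21029481 on the plus strand, Rhd at chr4:134864286-134864585 on the plus strand, Art4 at chr6:136857551-136857850 on the minus strand and Kel at chr6:41704276-41704575 on the minus strand. Capitals mark the GATA letters (AGATAA in one form, TGATAA in another, AGATAG in a further form and TGATAG in the last) and the CACC letters (CCACNCCC), each read on both strands.
Icam4: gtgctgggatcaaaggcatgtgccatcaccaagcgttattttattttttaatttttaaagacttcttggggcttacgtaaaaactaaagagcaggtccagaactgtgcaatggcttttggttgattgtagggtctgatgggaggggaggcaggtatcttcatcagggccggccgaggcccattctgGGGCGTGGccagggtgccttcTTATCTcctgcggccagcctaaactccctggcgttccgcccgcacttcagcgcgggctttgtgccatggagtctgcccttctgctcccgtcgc
Rhd: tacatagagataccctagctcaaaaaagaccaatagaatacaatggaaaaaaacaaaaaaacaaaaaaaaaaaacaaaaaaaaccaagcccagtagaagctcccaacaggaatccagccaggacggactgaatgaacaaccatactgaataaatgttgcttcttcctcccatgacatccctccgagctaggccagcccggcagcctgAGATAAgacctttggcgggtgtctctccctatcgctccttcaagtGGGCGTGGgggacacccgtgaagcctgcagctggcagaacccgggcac
Art4: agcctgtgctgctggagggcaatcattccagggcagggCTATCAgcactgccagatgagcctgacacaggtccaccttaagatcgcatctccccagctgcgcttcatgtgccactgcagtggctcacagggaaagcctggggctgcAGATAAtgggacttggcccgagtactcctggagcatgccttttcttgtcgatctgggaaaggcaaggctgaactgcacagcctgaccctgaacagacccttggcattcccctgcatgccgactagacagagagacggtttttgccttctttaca
Kel: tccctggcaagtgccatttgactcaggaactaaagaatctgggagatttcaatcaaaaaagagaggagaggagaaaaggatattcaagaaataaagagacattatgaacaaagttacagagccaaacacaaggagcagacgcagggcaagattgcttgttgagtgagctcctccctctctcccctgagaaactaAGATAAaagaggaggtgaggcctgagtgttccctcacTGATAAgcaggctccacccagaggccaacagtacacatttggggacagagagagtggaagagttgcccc

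Icam4 and Rhd held 1 GATA match and 1 CACC match each, and Art4 and Kel 2 GATA matches each. Of the 215 member genes, 169 had a window. At least 1 GATA match was present for 52 of these (30.8%), against 24.0% of the genes of all probes with wild-type above 1 and 33.0% of all genes with a window. A CACC match was present for 21.3% of members, against 25.7% and 19.7%. The members as a whole were therefore close to other genes in these letters. Among the 12 genes of the red cell surface and the iron and enucleation groups with a window, 7 held a GATA match (58.3%) and 5 a CACC match (41.7%); this subset was formed after the values were seen. A match is only a run of letters and no match says only that they are not in this window.

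Genes of late red cell maturation and of iron handling were the next group, 12 probes of 11 genes. Xpo7, a nuclear exporter that erythroblasts use while the nucleus condenses, was measured by 2 member probes. The brighter read 156.6 in the double-deficient array, 42.4 in the DNase II-deficient array and 191.6 in the wild-type array, and the dimmer read 3.72, 0.815 and 4.56. Their DNase II-deficient levels were 22.1% and 17.9% of wild-type, and their double-deficient levels 81.7% and 81.5%, so both probes gave nearly the same pattern at very different brightness. Car2, a carbonic anhydrase of the red cell and the brightest member in all 3 arrays, read 284.6 in the double-deficient array, 130.4 in the DNase II-deficient array and 338.1 in the wild-type array. Ctse, the aspartic protease cathepsin E of red cell membranes, read 55.0, 12.6 and 50.4, and Fn3k, the kinase that removes sugars from glycated proteins, read 15.9, 5.27 and 23.7, in the same order.

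Among iron genes, Tmprss6, the hepatocyte protease that holds down hepcidin, read 121.7 in the double-deficient array, 38.5 in the DNase II-deficient array and 116.1 in the wild-type array. Scara5 and Timd2, receptors for ferritin, read 6.81 and 8.08 in the double-deficient array, 2.12 and 3.52 in the DNase II-deficient array, and 4.82 and 7.29 in the wild-type array. The member probes of all 3 were above wild-type in the double-deficient array, unlike those of the surface proteins. This contrast is partly set by the rule, which requires 2 times the DNase II-deficient level. That level was 44.0% of wild-type for Scara5 and 48.3% for Timd2, but 33.1% for Tmprss6, against 15.2% to 41.0% for the surface proteins. Scara5 and Timd2 were lost as members under at least 1 scaling. A second Scara5 probe lay at the floor of 0.16 in both mutant arrays and read 0.167 in wild-type, so it gives no reading. Marchf8, the ubiquitin ligase that sends the transferrin receptor to lysosomes, and Fam210b, a mitochondrial protein needed for heme production, reached 84.8% and 80.3% of wild-type in the double-deficient array. The folate carrier gene Slc19a1 reached 89.7% and the iron-sulfur protein gene Cisd2 123.8%.

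The heme and iron list as a whole gave few members. Of its 37 probes with wild-type above 1, 10 read at most 0.5 times wild-type in the DNase II-deficient array and 1 at least 2 times, with a median log2 difference of -0.77, but only Cisd2 was a member (2.70%, against 2.63% of all probes). Slc25a37 met the numbers and was left out by name. Fech, which inserts iron into heme, was one of the 8 other lower probes: it read 98.3 in the double-deficient array, 56.4 in the DNase II-deficient array and 117.8 in the wild-type array, short of 2 times the DNase II-deficient level. Of 33 probes of red cell enzymes and antioxidants, 5 were at most 0.5 times wild-type, 3 at least 2 times, and 1, Car2, was a member. None of the 5 globin and chaperone probes was a member, and their median log2 difference between DNase II-deficient and wild-type was 0.65. The embryonic globin genes were higher: Hba-x read 35.2 in the double-deficient array, 154.8 in the DNase II-deficient array and 61.1 in the wild-type array, and Hbb-y read 133.0, 403.5 and 224.0. Of 24 probes of erythroid cytokine receptors and signalling, 3 read at most 0.5 times wild-type in the DNase II-deficient array, 4 at least 2 times, and 2 (8.33%) were members, Add2, which is also in the membrane list, and the kinase gene Dapk2, at 10.8 in the double-deficient array, 4.44 in the DNase II-deficient array and 9.07 in the wild-type array. Over the 7 red cell lists together, 52 of 198 probes read at most 0.5 times wild-type in the DNase II-deficient array and 11 at least 2 times. The shares over all probes were 6.49% and 4.29%. Members were 20 of the 198 (10.1%, against 2.63% of all probes).

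**Figure D3:**
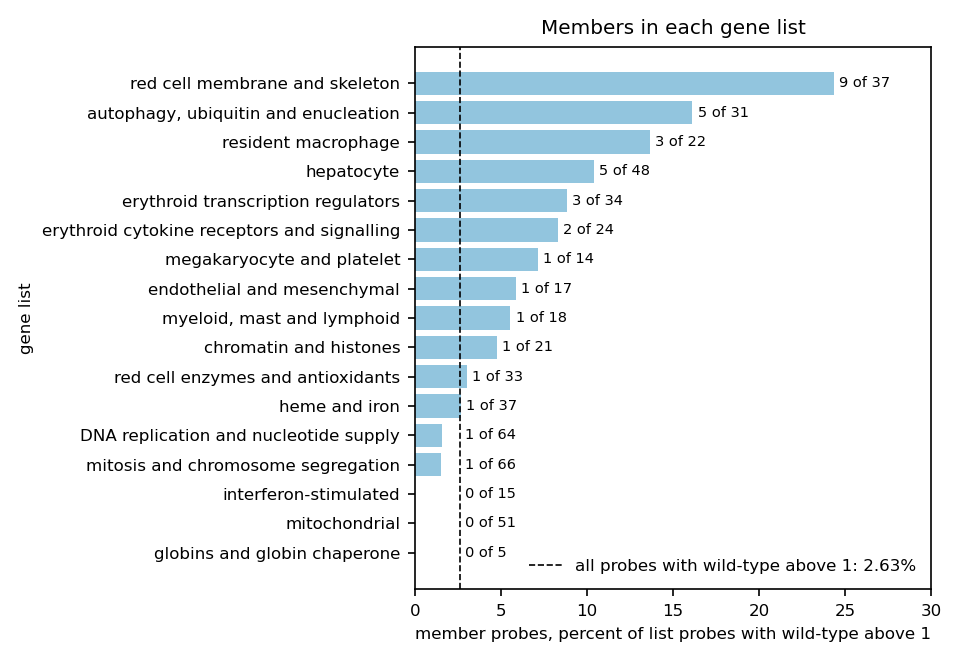
The bars give, for each gene list, the member probes as a percent of the list's probes with wild-type above 1, with the counts beside them. The dashed line is the share of members among all such probes, 2.63%. The red cell membrane and skeleton list has the longest bar at 24.3%, and the lists of interferon-stimulated, mitochondrial and globin genes hold no member.

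Transcription factors among the members included known erythroid regulators. Nfe2, the subunit of the factor that binds the globin control region, read 28.3 in the double-deficient array, 12.5 in the DNase II-deficient array and 33.1 in the wild-type array. E2f4, an E2F factor needed for red cell formation in the mouse fetus, read 30.2, 13.6 and 31.7, and Mxd3, a partner of Max, read 6.30, 2.39 and 6.59. They were the 3 members among 34 probes of the erythroid regulator list (8.82%, against 2.63% of all probes). Of the 34, 5 read at most 0.5 times wild-type in the DNase II-deficient array and 1 at least 2 times. The shares over all probes were 6.49% and 4.29%. Gata1, the central factor of red cell development, was lower but was no member: it read 12.4 in the double-deficient array, 7.64 in the DNase II-deficient array and 16.7 in the wild-type array. The corepressor gene Runx1t1 read 19.5, 5.84 and 24.96, and its second probe, no member, read 1.87, 1.62 and 2.61. Other members are known mainly from the development of other tissues. The homeobox genes Msx2 and Dlx3 read 93.9 and 57.5 in the double-deficient array, 42.6 and 25.2 in the DNase II-deficient array, and 103.1 and 64.0 in the wild-type array. Jazf1, a zinc finger gene, read 98.3, 37.8 and 101.2. Over all 15 transcription factor probes the double-deficient level had a median of 89.7% of wild-type.

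Genes of ubiquitin transfer and protein turnover gave 12 members, of which Fbxo9 and Rnf123 came from the autophagy, ubiquitin and enucleation list. Of that list's 31 probes, 10 read at most 0.5 times wild-type in the DNase II-deficient array, against 6.49% of all probes. None read at least 2 times wild-type there, against 4.29% of all probes. Members were 5 of the 31 (16.1%, against 2.63% of all probes), both Xpo7 probes and Marchf8 among them. Trim10 met the numbers and was left out by name. Fbxo9, the substrate subunit of a ubiquitin ligase, read 24.4 in the double-deficient array, 10.5 in the DNase II-deficient array and 39.1 in the wild-type array. Rnf123, a ubiquitin ligase that acts on the cell cycle inhibitor p27 and on other proteins, read 13.8, 5.60 and 15.9. Rnf183 and Mkrn1, also ubiquitin ligases, read 12.9 and 27.5 in the double-deficient array, 3.74 and 13.6 in the DNase II-deficient array, and 14.8 and 32.2 in the wild-type array. None of the 12 probes reached wild-type in the double-deficient array as deposited, and their median was 83.7% of it; Pepd, an enzyme that splits proline dipeptides, was just above wild-type under quantile, 75th percentile and cyclic loess scaling.

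Cell division genes gave members at a share near that of all probes (2.63%). Of 64 probes of DNA replication and nucleotide supply, 15 read at most 0.5 times wild-type in the DNase II-deficient array (against 6.49% of all probes) and 1 was a member (1.56%), the S phase cyclin gene Ccne1, at 12.7 in the double-deficient array, 6.25 in the DNase II-deficient array and 17.8 in the wild-type array. Of 66 probes of mitosis and chromosome segregation, 7 were lower by that measure and 1 was a member (1.52%), Cit, a kinase of cytokinesis, at 2.18, 1.09 and 2.56. No probe of either list was at least 2 times wild-type in the DNase II-deficient array, against 4.29% of all probes. The linker histone gene H1f2, the member of the chromatin and histone list, read 1.22, 0.290 and 1.22.

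Hepatocyte members had the lowest median return of the role groups. They also had the lowest median DNase II-deficient level, 27.3% of wild-type. The rule allows a lower return where that level is lower, so the ranking is not independent of it. Of 48 hepatocyte list probes with wild-type above 1, 9 read at most 0.5 times wild-type in the DNase II-deficient array and 2 at least 2 times. Over all probes these shares were 6.49% and 4.29%, and the count of higher probes was near the latter. Members were 5 of the 48 (10.4%, against 2.63% of all probes): Car3, Serpina1e, Serpina1d, C8b and the cytochrome P450 gene Cyp2e1. The list as a whole was not lower than other probes, with a median log2 difference of -0.19 against -0.24 for all 8322. Igfbp1, which binds insulin-like growth factors, was far higher, at 9.19 in the double-deficient array, 82.8 in the DNase II-deficient array and 4.06 in the wild-type array, and the haptoglobin gene Hp read 32.2, 41.7 and 10.1. Serpina1e and Serpina1d, copies of the alpha-1 antitrypsin gene, read 167.6 and 222.1 in the double-deficient array, 59.6 and 104.9 in the DNase II-deficient array, and 242.4 and 301.6 in the wild-type array. These genes are near-identical copies, and whether their probes also bind the other copies was not tested. G6pc, the enzyme that releases glucose from the liver, read 118.1 in the double-deficient array, 56.0 in the DNase II-deficient array and 135.2 in the wild-type array. The complement gene C8b read 18.5, 8.55 and 25.3. The fatty acid binding gene Fabp2 read 4.53, 1.16 and 6.78, and the bile salt export pump gene Abcb11 read 2.68, 1.24 and 8.10. Dimmer members were the amino acid enzyme gene Agxt (0.852, 0.359 and 1.62) and the mitochondrial carbonic anhydrase gene Car5a (0.535, 0.259 and 1.01). Over the 14 members of this group, extended after the values were seen, the double-deficient level had a median of 65.0% of wild-type with a range of 15.5% to 87.3%, and none reached wild-type.

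Macrophage and sinusoidal genes were represented by 5 members, including the Fc receptor relative Fcrls. Marco, Fcna and Ccl24, given above, were 3 of 22 probes of the resident macrophage list (13.6%, against 2.63% of all probes). Of the 22, 7 read at most 0.5 times wild-type in the DNase II-deficient array and 2 at least 2 times. The shares over all probes were 6.49% and 4.29%. Stab2, the scavenger receptor with which sinusoidal endothelium clears hyaluronan, read 22.1 in the double-deficient array, 10.2 in the DNase II-deficient array and 23.0 in the wild-type array. The remaining lower probes of the macrophage list included Cd5l and Clec4f, which were low in both mutants: Cd5l read 4.101, 3.41 and 30.6. Nfe2 was the 1 member of 14 megakaryocyte and platelet probes, Stab2 of 17 endothelial and mesenchymal probes, and the surrogate light chain gene Vpreb1 of 18 myeloid, mast and lymphoid probes (7.14%, 5.88% and 5.56%, against 2.63% of all probes). At least 2 times wild-type in the DNase II-deficient array were 9 of the 18 myeloid, mast and lymphoid probes, against 4.29% of all probes. The same held for 4 of the 17 endothelial and mesenchymal probes and none of the 14 megakaryocyte probes.

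**Figure D4:**
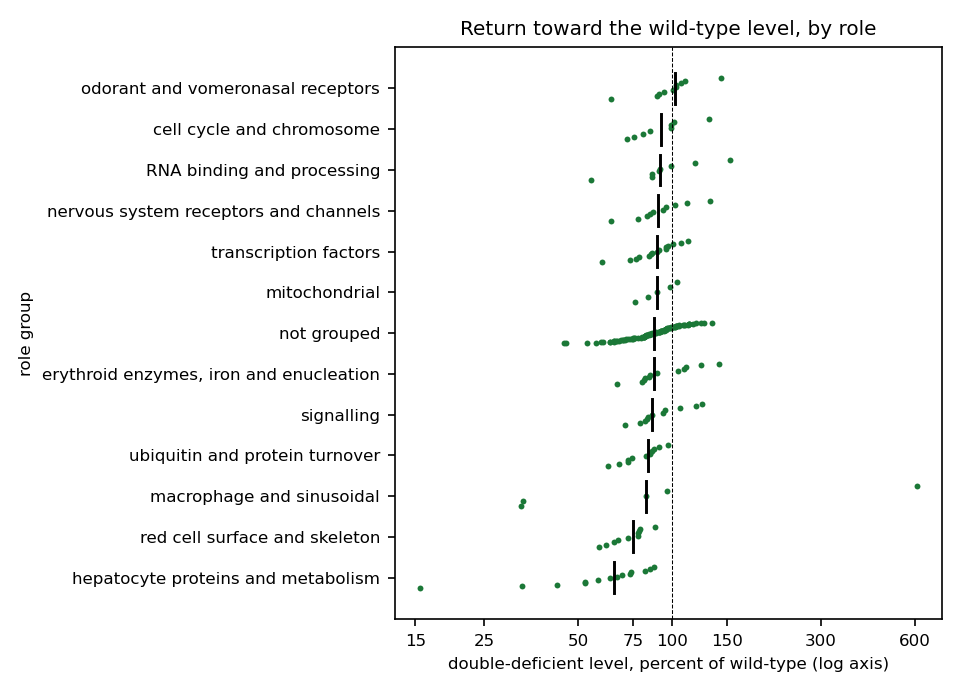
Each point is a member probe, placed by its double-deficient level as a percent of wild-type (log axis), and grouped by role with groups formed after the values were seen. Black bars are group medians and the dashed line is the wild-type level. Hepatocyte genes (median 65.0%) and red cell surface genes (75.02%) lie lowest, and odorant and vomeronasal receptors (102%) highest. The rule allows a lower return where the DNase II-deficient level is lower, so this order is not independent of it.

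Signalling members included the phosphatase gene Ptp4a3, again with 2 member probes: 1 read 79.5 in the double-deficient array, 19.7 in the DNase II-deficient array and 101.0 in the wild-type array, and the other read 22.05, 8.94 and 26.3. Arrb1, the arrestin that ends signalling from G protein-coupled receptors, read 24.2, 7.35 and 34.1. Spns2, an exporter of sphingosine 1-phosphate, and the myotubularin relative Mtmr12 read 70.0 and 96.0 in the double-deficient array, 28.1 and 33.3 in the DNase II-deficient array, and 84.2 and 100.8 in the wild-type array. The calcium-dependent membrane protein gene Anxa4 read 111.1, 50.6 and 105.0. Mitochondrial members were the complex I subunit gene Ndufa6 (58.7, 19.4 and 77.2), the ribosomal gene Mrpl20 (94.2, 45.3 and 105.3), Apool, Cox20 and Prelid3a. None of the 51 probes of the mitochondrial list was a member, against 2.63% of all probes. Of the 51, 3 read at most 0.5 times wild-type in the DNase II-deficient array, against 6.49% of all probes. Counts this small give no result about mitochondrial genes as a group. The poly(A) binding protein gene Pabpc4 had 2 member probes, 1 at 24.1, 11.5 and 43.7 and the other at 5.93, 2.35 and 6.52.

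Besides the hepatocyte members Abcb11, Fabp2 and Hao2, low ratios outside the lists belonged to genes of various roles. Tac2, the neurokinin B gene, read 1.01 in the double-deficient array, 0.262 in the DNase II-deficient array and 1.90 in the wild-type array, and Kctd14, a gene of a BTB domain protein, read 63.1, 15.6 and 107.0. The meiosis gene M1ap, the sperm membrane gene Adam1a and Sh3yl1 had DNase II-deficient levels of 16.6%, 17.7% and 19.9% of wild-type. Nxpe2 had 2 member probes, 1 of them bright enough to read 13.7 in the double-deficient array, 3.11 in the DNase II-deficient array and 13.3 in the wild-type array.

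A further group carried names of genes known from sensory and nervous tissue and was formed after the values were seen. Of 543 odorant receptor probes, 111 had wild-type above 1. Among these, 10 (9.01%) read at most 0.5 times wild-type in the DNase II-deficient array and 9 (8.11%) were members, against 6.49% and 2.63% of all probes, while their median log2 difference of -0.25 was that of all probes (-0.24). Olfr1124 read 56.8 in the double-deficient array, 24.7 in the DNase II-deficient array and 62.8 in the wild-type array, and Olfr818 read 21.0, 6.63 and 23.4. The remaining 7 had wild-type levels between 1.06 and 5.54. The vomeronasal receptor gene Vmn1r40 was 1 of 12 such probes. Among nervous system genes, Csmd1 read 55.8, 18.3 and 58.3, the potassium channel gene Kcnj6 read 8.07, 2.88 and 10.4, and the dopamine receptor gene Drd4 read 11.5, 5.21 and 13.1. Whether these probes also bind other transcripts was not tested. Receptor probes had a median double-deficient level of 102% of wild-type and nervous system probes one of 90.3%.

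Probes that the rule did not choose give another reading of the same RNA. Of the 215 member genes, 4 had 2 member probes (Xpo7, Ptp4a3, Pabpc4 and Nxpe2), 36 had 39 further probes that were not members, and 176 rested on a single probe. Ptp4a3 is counted in the first and second of these. Of the 39 further probes, 22 had wild-type above 1 and 8 lay at the floor in all 3 arrays, including a second probe of Mtmr12, whose member probe read 100.8 in wild-type. Such probe pairs did not give the same level.

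The 22 further probes more often shared the direction of the members than met either threshold. In 20 of 22 the DNase II-deficient level was below wild-type, and in 19 (86.4%) the double-deficient level was also above DNase II-deficient, with 58.5% for all 8322 probes. These probes are the ones that failed the rule, since second probes that met it are members, so their counts are not comparable with the share over all probes. At the first threshold, 3 (13.6%) read at most 0.5 times wild-type in the DNase II-deficient array: those of Nipa1, Galnt10 and Itpka. Of the 22, 1 read at least 2 times higher in the double-deficient than in the DNase II-deficient array, that of Cisd2 at 4.58 against 2.18, with 3.67 in wild-type. The median log2 difference of these probes was -0.68 between DNase II-deficient and wild-type and -0.18 between double-deficient and wild-type. Among red cell members, the second Add2 probe read 11.1 in the double-deficient array, 8.39 in the DNase II-deficient array and 14.2 in the wild-type array, a log2 difference from wild-type of -0.76 in the DNase II-deficient array against -2.71 for the member probe. The second Slc14a1 probe read 3.90, 2.45 and 4.50. The third Ptp4a3 probe read 27.7, 16.2 and 31.0. The second probes of Zc3h11a and Csdc2 did not follow the members, with log2 differences of 0.03 and 0.28. Members were chosen for low values in the DNase II-deficient array and the further probes were not, and the sizes of the 2 sets are not alike in that respect.

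**Figure D5:**
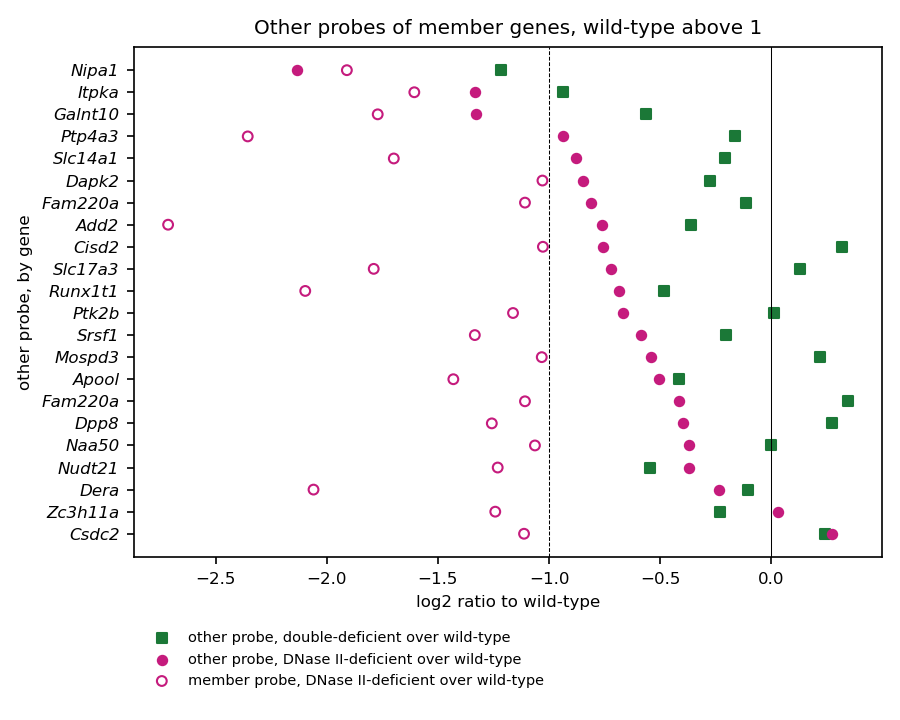
For the 22 further probes of member genes with wild-type above 1, green squares give the log2 ratio of double-deficient to wild-type, filled pink circles that of DNase II-deficient to wild-type, and open circles the ratio of DNase II-deficient to wild-type for the brightest member probe of the same gene. The dashed line marks a ratio of 0.5. Filled circles lie below 0 in 20 of 22 probes and left of the dashed line in 3.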

How the data were processed

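Messenger RNA of fetal liver, 1 array per genotype, was measured on CodeLink arrays, and the scans were read by CodeLink System Software per the labels. The deposited intensity values are normalised by the authors on a linear scale, with array medians of 0.963, 0.959 and 0.958 in the double-deficient, DNase II-deficient and wild-type arrays and 253, 224 and 267 values at or below 0. Software version and background method: not given in the sources used here. Arrays have no depth, and their number limits the precision.

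Values were used as deposited, raised to 0.16, and compared as ratios. Of 20289 probes, 125 lacked a value; 15120 had 1 symbol, 38 several and 5131 none in the platform annotation, which can be old. Of the members, 218 probes matched the RefSeq gene table by Entrez identifier with the same symbol. List genes absent under their own symbol were looked up under aliases. With 1 array per genotype no test was run, and lists are described by counts and medians beside all probes.

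The members, the 17 gene lists and the rule for named genes were chosen with earlier results of these data known. The rule named the list members with the lowest ratios, up to 4 per list, the 12 lowest and 8 brightest outside the lists, the 6 highest and lowest ratios of double-deficient to wild-type, and probes next to a threshold. Genes in the 12 role groups were also named after their values were seen. Alternatives were quantile, 75th percentile and cyclic loess scaling (limma 3.58.1), other floors, minimums and folds, and other motif letters. The steps were checked on simulated data. Promoters came from RefSeq, GRCm38.p6.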

Additional observations from a re-analysis of the deposited data

How the results depend on the processing

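Results rest on 1 array per genotype and 176 of 215 genes on 1 probe, so no array could be left out. No paired analysis was possible because each genotype has 1 array. The count of 219 probes was 175 with quantile normalisation, 166 with 75th percentile scaling and 137 with cyclic loess; all 137 were members as deposited and remained under all 3 scalings. These scalings moved the median log2 difference of all probes between DNase II-deficient and wild-type to -0.11, -0.10 and -0.01, against -0.24 as deposited, and the count of lower probes to 393, 387 and 297, against 540. Members of the red cell membrane and skeleton list numbered 9 of 37 probes as deposited (24.3%), 6 with quantile normalisation (16.2%), 8 with 75th percentile scaling (21.6%) and 5 with cyclic loess (13.5%). Members lost under at least 1 scaling included Icam4, Kel, Rhd and Slc43a1 of the red cell surface group, and Car2, E2f4, Ccne1, Serpina1d and Stab2. At 1.5-fold in both steps 863 probes qualified, and at 3-fold 37. Genes in a list numbered 32 as deposited and 18 with cyclic loess. With AGATAA alone a GATA match was present for 12.4% of member genes, 8.81% of genes with wild-type above 1 and 12.7% of all genes with a window, and with CCNCNCCC a CACC match for 58.0%, 70.0% and 51.9%. Of the further probes, 16 of 21 shared the members' direction with loess, against 19 of 22 as deposited, and 2 against 3 were at most 0.5 times wild-type. The direction of the members in the DNase II-deficient array is fixed by their choice, since no scaling moved a member as far as the threshold lies from 0. The cause of the lower counts was not tested.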

Other observations

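Some members are neighbours in the genome. In the order of protein-coding genes of the RefSeq table, 14 pairs of members had at most 4 genes between them, and 3 pairs had none: Car3 and Car2 on chromosome 3, Nxpe4 and Nxpe2 on chromosome 9, and Dynll2 and Srsf1 on chromosome 11. Car2 and Car3 differed in level and in return to wild-type. Car2 read 284.6 in the double-deficient array, 130.4 in the DNase II-deficient array and 338.1 in the wild-type array, and reached 84.2% of wild-type in the double-deficient array, whereas Car3, at 2.52, 0.868 and 16.3, reached 15.5%. The red cell genes Dmtn and Xpo7 on chromosome 14, with 2 genes between them, reached 77.9% and 81.7%. No share for other genes was computed for such pairs, so whether members are neighbours more often than other genes was not tested.

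Probes without a single symbol also met the numbers of the rule: 60 of 1637 with wild-type above 1 (3.67%), against 227 of 8322 probes with 1 symbol (2.73%). Of the members, 13 carried clone or gene model names and are counted but not described. Probes designed on curated RefSeq transcripts made up 66.7% of members and 70.0% of all probes with 1 symbol and wild-type above 1.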
